A study of Mus musculus with 6 samples.

Results

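Expression of the gene for the p97 segregase and of 9 genes listed with it as cofactors was examined in satellite cells of mouse muscle, from which muscle fibres regenerate. The members were Vcp, Nploc4, Ufd1l (current symbol Ufd1), Nsfl1c, Faf1, Faf2, Ubxn1, Ubxn4, Ubxn6 and Zfand2a, taken by gene name from the non-control probes of the array. These 10 genes had 13 of the 55681 probes. Of the 10, 9 were among the 17949 features tested, and Ubxn4 was not well above background on any array. The cells were sorted from 3 C57BL6 mice in which satellite cells are Rpt3 null and from 3 C57BL6 control mice, with 1 single-colour Agilent array for each mouse. The promoter that drives the deletion, the part of the gene removed, the controls' alleles and the animals' ages are not given in the sources used here. Psmc4 encodes Rpt3, one of the ATPases that unfold substrates at the entrance of the proteasome.

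p97 is a ring-shaped ATPase that pulls ubiquitin-tagged proteins out of membranes and complexes and passes them to the proteasome. Cofactors decide which substrates it meets: the UFD1-NPL4 pair binds ubiquitin chains, while UBX-domain proteins dock on p97 and direct it to particular organelles or substrates. p97 also releases the membrane-bound transcription factor NRF1, which raises proteasome genes when proteasome activity is short.

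The signal of Psmc4 was lower on all 3 knockout arrays, at 2.003, 2.02 and 1.52, than on the control arrays, at 2.89, 2.58 and 2.83. These and all later levels are normalized log2 signals, the log2 intensity minus the 75th percentile of the array, and they order arrays for 1 probe only. The difference for Psmc4, knockout minus control, was -0.92 (SE 0.24; limma, adjusted p = 0.415), and whether its probe lies in the deleted part is not known. Knockout 3 stood apart, at 70.3 on the first principal component, where the other arrays lay between -23.5 and -4.12. Between 44.2% and 57.9% of probes were well above background, with the lowest share on knockout 3. Knockout 1 and 2 lay in slide row 1, and knockout 3 and all controls in slide row 2, so a row-blocked fit (slide row added as a block) rests on knockout 3 alone against the controls. The row-blocked fit and a fit to the row 2 arrays give the same differences, and their p-values assume that the lone knockout array varies like the others.

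The sorted cells held satellite cell markers, but not these alone. Of 10 satellite cell markers, 7 were well above background on all 6 arrays; Pax7 was so on 5 arrays and Myf5 on the 3 control arrays only. All 8 markers of fibro-adipogenic progenitors, 7 of 8 of endothelial cells, 5 of 8 of macrophages and 4 of 4 of Schwann cells were also above background on all 6. Of 9 neutrophil markers 1 was, and of 7 red blood cell markers 2 were, with Ahsp above background on none. Of 6 muscle fibre markers 2 were, and Ckm was above background on none. These counts use the best probe of each gene, and between 44.2% and 57.9% of all probes passed the same call on an array. They do not measure how many cells of a type were present. If the RNA is mixed, fewer cells of a type and less RNA per cell cannot be told apart.

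The 250 bases before the annotated start of 4 members are shown, since the genes of p97, NPL4 and ZFAND2A had the largest differences that separated the groups, and UFD1 is the partner of NPL4. The sequences are from RefSeq on build GRCm38.p6, each 5′ to 3′ on the strand of its gene. All 10 genes matched that table, with 12 starts, since Ubxn6 has 3. Capitals mark matches on either strand to any of 6 motifs.
Vcp (chr4:43000508-43000757, minus strand): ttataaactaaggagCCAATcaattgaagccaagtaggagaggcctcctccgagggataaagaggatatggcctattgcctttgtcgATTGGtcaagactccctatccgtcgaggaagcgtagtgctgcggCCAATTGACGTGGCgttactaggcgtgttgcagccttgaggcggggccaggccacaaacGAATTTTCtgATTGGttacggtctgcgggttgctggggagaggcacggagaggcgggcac
Nploc4 (chr11:120437701-120437950, minus strand): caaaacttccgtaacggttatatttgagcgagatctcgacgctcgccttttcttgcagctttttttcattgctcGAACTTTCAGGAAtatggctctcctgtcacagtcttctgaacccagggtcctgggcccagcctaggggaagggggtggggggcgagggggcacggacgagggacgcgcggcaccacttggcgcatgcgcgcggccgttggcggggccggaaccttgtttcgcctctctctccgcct
Ufd1l (chr16:18812044-18812293, plus strand): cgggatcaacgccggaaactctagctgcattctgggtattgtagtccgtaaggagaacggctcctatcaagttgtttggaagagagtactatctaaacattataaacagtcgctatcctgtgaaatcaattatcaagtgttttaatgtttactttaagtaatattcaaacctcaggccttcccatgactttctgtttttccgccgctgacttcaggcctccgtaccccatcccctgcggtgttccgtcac
Zfand2a (chr5:139484492-139484741, minus strand): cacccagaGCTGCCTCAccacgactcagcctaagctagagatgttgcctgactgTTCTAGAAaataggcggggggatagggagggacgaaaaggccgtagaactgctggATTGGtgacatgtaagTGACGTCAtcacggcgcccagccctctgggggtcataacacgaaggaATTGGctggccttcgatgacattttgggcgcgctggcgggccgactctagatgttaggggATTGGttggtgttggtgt

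The motifs searched were the core of the antioxidant response element in the forms TGACNNNGC and TGAGNNNGC, the heat shock element in the forms TTCNNGAA and GAANNTTC, the cyclic AMP response element TGACGTCA, and the CCAAT box. In windows of the same 250 bases, they occur in 10.2%, 14.4%, 7.17%, 6.69%, 1.55% and 33.8% of 32851 promoters, in that order. Vcp held 1 antioxidant element core, TGACGTGGC, from 114 to 106 bases before the start, directly after a CCAAT box. It also held 1 match to a heat shock form and 4 CCAAT boxes in all. Nploc4 held overlapping matches to both heat shock forms, GAACTTTC from 176 to 169 and TTCAGGAA from 171 to 164 bases before the start. The shares given above count each 8-base form by itself. Zfand2a held TTCTAGAA from 196 to 189 bases before the start, a cyclic AMP response element from 125 to 118, 3 CCAAT boxes and 1 antioxidant element core of the second form. Members with small or untested differences held matches too. Nsfl1c held the heat shock form TTCAAGAA from 234 to 227 bases before the start. Ubxn4, not above background on any array, held 1 antioxidant element core of the form TGACNNNGC, from 38 to 30 bases before the start. Ubxn6 held CCAAT boxes and no other motif. Ufd1l, Faf1, Faf2 and Ubxn1 held none of the 6 motifs in this window. A match describes the letters only, and the series holds no binding data.

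Transcripts of p97 and of NPL4, a subunit of its substrate-binding adaptor, had higher mean signals in the Rpt3 knockout samples, 2.04-fold for Vcp and 2.36-fold for Nploc4. Zfand2a was 2.73-fold higher. Ufd1l, for the other subunit of the adaptor, differed by 1.04 on the log2 scale, with groups that overlapped. For knockout 3 alone against the controls, Ufd1l differed by 0.23. The UBX proteins Faf2, Ubxn1 and Ubxn6 differed by 0.19, 0.11 and -0.09 on the log2 scale. By limma, 0 of the 9 tested members and 0 of 17949 features passed an adjusted p of 0.05, a background of 0%. At an unadjusted p under 0.05, 5 of the 9 were higher (Vcp, Nploc4, Ufd1l, Faf1 and Zfand2a) and 0 lower, beside 2.82% of all features higher and 4.41% lower. In 5 of the 9 (Vcp, Nploc4, Nsfl1c, Faf1 and Zfand2a) every knockout array lay above every control array, beside 4.93% of all features, and in 0 every knockout array lay below every control, beside 5.91%. The median difference of the 9 was 0.52, and that of all features was 0.04. The members had been proposed with results of these arrays known, so their counts are a description. The count at the unadjusted p was 3 without knockout 1, without knockout 2 or without control 2, where 2.95%, 2.14% and 2.37% of all features were higher. It was 2 in the row-blocked fit, where the background was 8.19%, and 1 among the row 2 arrays, with 6.75%.

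**Figure D1:**
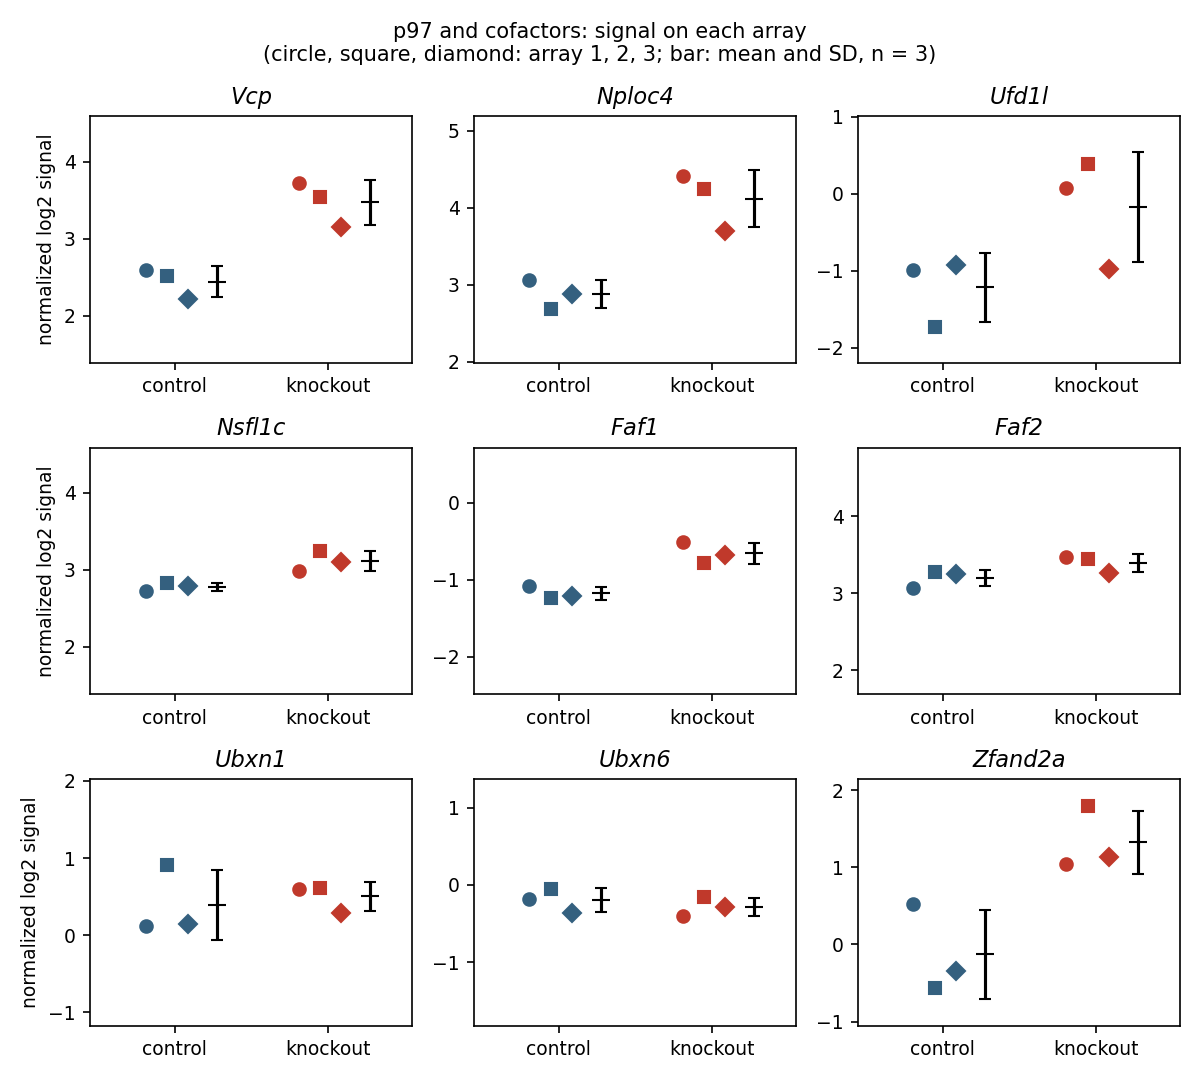
Normalized log2 signal of the 9 tested members on each array, in a panel per gene, with every vertical axis spanning the same range of log2 units. Points are arrays 1, 2 and 3 of each group, and bars are the mean and SD (n = 3). The groups are apart in Vcp, Nploc4, Nsfl1c, Faf1 and Zfand2a and overlap in the others.

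Vcp encodes the ATPase itself. Its probe, A_55_P1961645, covers 60 bases of transcript NM_009503 from base 3151, at chr4:42992940-42992999 of build mm9, minus strand. Its signal was 3.72, 3.55 and 3.15 in knockout 1, 2 and 3, against 2.597, 2.51 and 2.21 in control 1, 2 and 3. All knockout arrays lay above all controls, with knockout 3 the nearest to them. The means were 3.47 ± 0.29 (SD, n = 3) and 2.44 ± 0.20 (SD, n = 3). The difference was 1.03 (SE 0.24, 95% interval 0.47 to 1.59; limma, adjusted p = 0.348), or 2.04-fold, with an exact permutation p of 0.1, a value below which 3 against 3 arrays cannot go. By moderated t, Vcp ranked 56 from the top of 17949 features. For knockout 3 alone against the controls it was 0.71 (limma, adjusted p = 0.301 row-blocked and 0.362 among the row 2 arrays).

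Nploc4 encodes NPL4, the ubiquitin-binding subunit of the adaptor that recruits tagged substrates to p97. The probe, A_55_P2164111, starts at base 4051 of transcript NM_001195023 and lies at chr11:120241686-120241745 of mm9, minus strand. Signals of 4.40, 4.24 and 3.70 on the knockout arrays stood against 3.05, 2.69 and 2.88 on the controls. The groups did not overlap, and knockout 3 was again the lowest knockout array. The difference was 1.24 (SE 0.26, 95% interval 0.64 to 1.84; limma, adjusted p = 0.316), or 2.36-fold, at rank 29 from the top. The row-blocked value was 0.83 (limma, adjusted p = 0.286, or 0.361 among the row 2 arrays).

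Ufd1l encodes UFD1, the obligate partner of NPL4, and had 2 probes. The brighter one, A_55_P2047509 (base 985 of NM_011672; chr16:18834344-18834403 of mm9, plus strand), had signals of 0.07, 0.38 and -0.98 on the knockout arrays and -0.99, -1.73 and -0.92 on the controls. Knockout 3 lay at the level of controls 1 and 3, so the groups overlapped. Its difference was 1.04 (SE 0.40, 95% interval 0.12 to 1.96; limma, adjusted p = 0.616). Row-blocked, it was 0.23 (limma, adjusted p = 0.771, or 0.793 among the row 2 arrays), and normexp background correction gave 0.51. The dimmer probe, A_52_P220347 (base 1120; chr16:18834479-18834538), differed by 0.44 (SE 0.26; limma over all probes, adjusted p = 0.844) and was above background on 2 of 3 knockout arrays. Within arrays, the difference of Nploc4 exceeded that of Ufd1l by 0.20, with groups that overlapped (exact permutation p = 0.6, 2-sided; 0.75 adjusted over the 5 pairs compared).

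Nsfl1c encodes p47, an adaptor for membrane fusion at the Golgi and the nuclear envelope. Its probe, A_55_P2078940 (base 1255 of NM_198326; chr2:151336942-151337001 of mm9, plus strand), gave 2.98, 3.24 and 3.099 on the knockout arrays and 2.72, 2.82 and 2.79 on the controls. The groups did not overlap, but the gap was small. The difference was 0.33 (SE 0.20, 95% interval -0.14 to 0.80; limma, adjusted p = 0.872). The row-blocked value was 0.32 (limma, adjusted p = 0.476, or 0.491 among the row 2 arrays). Vcp differed by 0.70 more than Nsfl1c within arrays, and all 3 knockout arrays lay above all controls in this contrast (exact permutation p = 0.1; 0.333 adjusted over the 5 pairs). The pairs were chosen after the values were seen.

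Among the UBX proteins, Faf1 encodes a p97 cofactor first known as a binding partner of the death receptor FAS. Its brighter probe, A_52_P678183 (base 3746 of NM_007983; chr4:109635883-109635942 of mm9, plus strand), gave -0.51, -0.78 and -0.68 on the knockout arrays and -1.08, -1.24 and -1.21 on the controls. No control reached the lowest knockout array. The difference was 0.52 (SE 0.21, 95% interval 0.05 to 0.998; limma, adjusted p = 0.640), and the row-blocked value was 0.50 (limma, adjusted p = 0.334, or 0.380 among the row 2 arrays). Normexp background correction gave 0.27. The other probe, A_51_P414837 (base 2273; chr4:109634410-109634469), lay between -1.24 and -0.61 in knockout and between -2.02 and -1.73 in control cells, a difference of 0.86 (SE 0.26; limma over all probes, adjusted p = 0.460). Both Faf1 probes thus had groups that did not overlap.

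Faf2 encodes UBXD8, which brings p97 to the endoplasmic reticulum and lipid droplets. Its brighter probe, A_51_P255193 (base 3991 of NM_178397; chr13:54765094-54765153 of mm9, plus strand), gave 3.47, 3.44 and 3.26 on the knockout arrays and 3.07, 3.27 and 3.25 on the controls. Knockout 3 lay below control 2. The difference was 0.19 (SE 0.21, 95% interval -0.28 to 0.67; limma, adjusted p = 0.984), and the row-blocked value was 0.06. The mean of both probes gave -0.21. The dimmer probe, A_55_P2182016 (base 1790; chr13:54762893-54762952), differed by -0.61 (SE 0.56; limma over all probes, adjusted p = 0.945). Its value of -3.67 on knockout 3, the one array where it was not well above background, lay far below the others, which ran from -1.98 to -1.16. The 2 probes thus gave opposite signs, neither past the threshold.

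Ubxn1 encodes a UBX protein that binds ubiquitin chains. Its probe, A_52_P568805 (base 961 of NM_146093; chr19:8950075-8950134 of mm9, plus strand), gave 0.60, 0.62 and 0.29 on the knockout arrays and 0.12, 0.91 and 0.14 on the controls. Control 2 was the highest of all 6 arrays. The difference was 0.11 (SE 0.28, 95% interval -0.53 to 0.76; limma, adjusted p = 0.984), and the row-blocked value was -0.10. It was -0.023 without control 1, -0.01 without control 3 and 0.37 without control 2. Ubxn6 encodes UBXD1, a cofactor in endosome and lysosome clearance. Its probe, A_51_P391926 (base 1353 of NM_024432; chr17:56207965-56208024 of mm9, minus strand), gave -0.40, -0.16 and -0.29 on the knockout arrays and -0.19, -0.05 and -0.36 on the controls. It was the single tested member with a lower mean in knockout cells, at -0.09 (SE 0.21, 95% interval -0.57 to 0.40; limma, adjusted p = 0.984). The intervals of Faf2, Ubxn1 and Ubxn6 thus include 0 and do not exclude differences up to their ends. Ubxn4 encodes erasin, which anchors p97 at the endoplasmic reticulum. Its single probe (A_52_P401475; chr1:130175865-130175924 of mm9, plus strand) was above background on 0 of 6 arrays, and no difference is given.

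Zfand2a encodes AIRAP, a zinc finger protein induced by arsenite that associates with the proteasome. Its probe, A_55_P2063396 (base 3008 of NM_133349; chr5:139947208-139947267 of mm9, minus strand), gave 1.04, 1.79 and 1.14 on the knockout arrays and 0.52, -0.57 and -0.34 on the controls. Knockout 2 was the highest, control 1 came nearest to the knockout arrays, and the groups did not overlap. The means were 1.32 ± 0.41 (SD, n = 3) and -0.13 ± 0.57 (SD, n = 3). The difference was 1.45 (SE 0.35, 95% interval 0.64 to 2.26; limma, adjusted p = 0.362), or 2.73-fold, at rank 59 from the top, the largest difference of the 9 members. For knockout 3 alone against the controls it was 1.27 (limma, adjusted p = 0.313 row-blocked and 0.368 among the row 2 arrays).

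**Figure D2:**
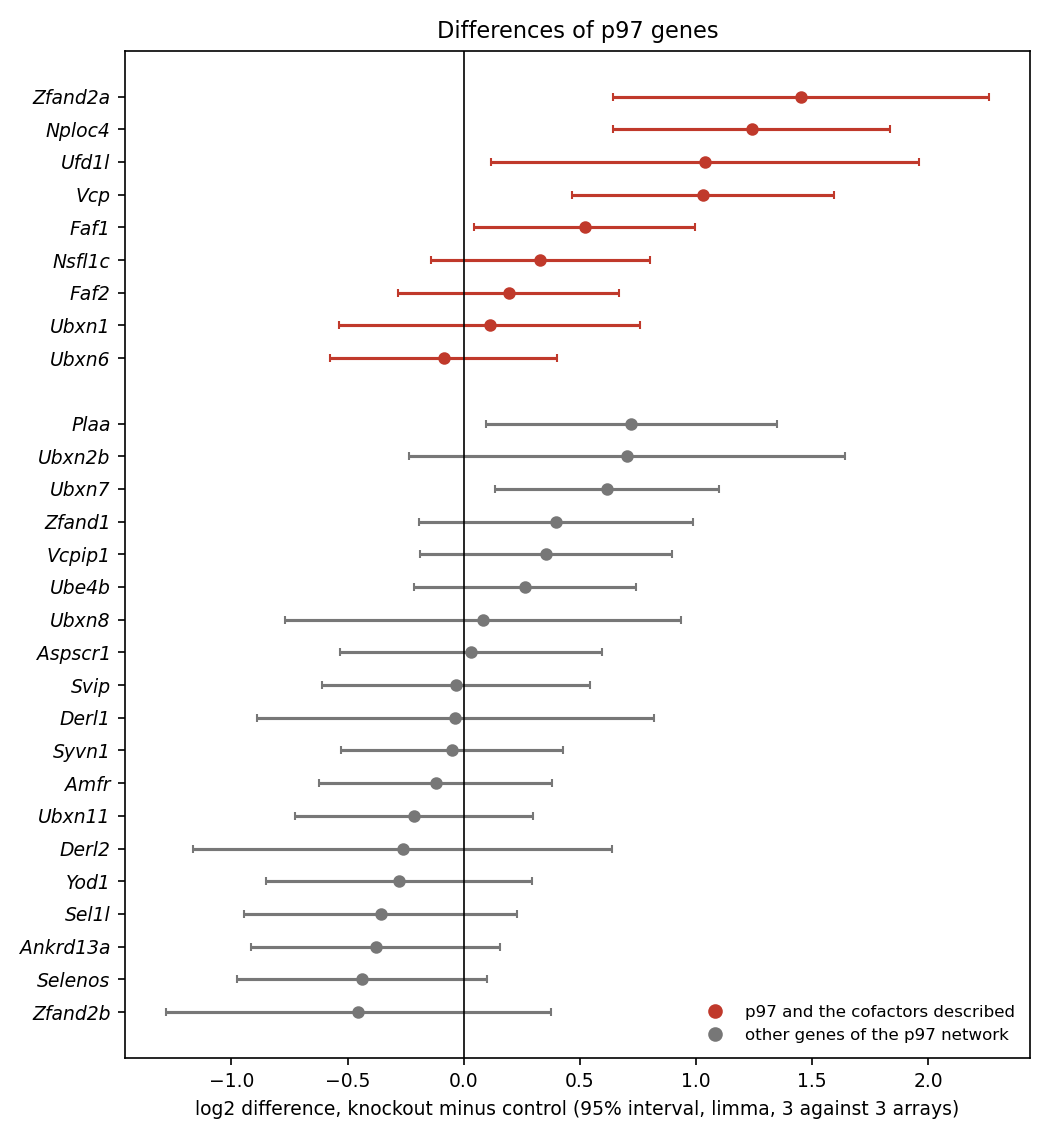
Log2 difference, knockout minus control, of the 9 tested members (red) and of 19 other genes of the p97 network (grey), with 95% intervals from limma (3 arrays against 3). Zfand2a, Nploc4, Ufd1l and Vcp lie above 1, whereas the network genes lie between -0.45 and 0.72.

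Other genes of the p97 network lay on both sides of 0. From a list of 26 partners, 19 were tested and 7 were not (Ubxn2a, Ubxn10, Derl3, Rhbdd1, Ngly1, Atxn3 and Vcpkmt). Of the 19, 8 had higher and 11 lower means, with a median difference of -0.04 beside 0.04 over all features. None of the 19 passed in either direction (limma, adjusted p from 0.552 to 0.993), and at an unadjusted p under 0.05 there were 2 higher and 0 lower, beside 2.82% and 4.41% of all features. Groups were apart in 2 genes that were higher (Ubxn7 and Zfand1) and in 1 that was lower (Sel1l), beside 4.93% and 5.91% of all features. Zfand1, a zinc finger protein of stress granule clearance, differed by 0.40 (SE 0.26; limma, adjusted p = 0.895) and is named after its values were seen. All 7 tested partners at the membrane of the endoplasmic reticulum had lower means, from -0.44 to -0.03 with a median of -0.12, and none passed the test. Of all 17949 features, 8072 had lower means, and Derl1, Svip and Syvn1 were at -0.04, -0.03 and -0.05.

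The 3 partners with the highest moderated t were Ubxn7, Plaa and Ubxn2b. Ubxn7, which links p97 to cullin ubiquitin ligases, stood at 0.28, 0.38 and 0.10 on the knockout arrays and at -0.45, -0.23 and -0.40 on the controls, without overlap. Its difference was 0.62 (SE 0.21; limma, adjusted p = 0.552), and 0.34 with normexp background correction. Plaa, a ubiquitin-binding cofactor, stood at 3.85, 3.94 and 3.35 on the knockout arrays and at 3.36, 2.70 and 2.91 on the controls, so knockout 3 met control 1. Its difference was 0.72 (SE 0.27; limma, adjusted p = 0.607), and 0.36 row-blocked. Ubxn2b, which encodes the Golgi adaptor p37, differed by 0.70 (SE 0.41; limma, adjusted p = 0.859). It was 1.17 without knockout 2, 0.37 without knockout 1 and 0.31 with normexp background correction.

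The 3 partners with the lowest moderated t were Selenos, Ankrd13a and Sel1l. Selenos, which helps recruit p97 to the endoplasmic reticulum, stood at 3.06, 2.90 and 2.68 on the knockout arrays and at 3.06, 3.36 and 3.54 on the controls. Its difference was -0.44 (SE 0.23; limma, adjusted p = 0.818). Ankrd13a, a ubiquitin-binding protein of receptor uptake, differed by -0.38 (SE 0.23; limma, adjusted p = 0.871), and by -0.25 without control 3. Sel1l, the scaffold of the HRD1 ubiquitin ligase, stood at 2.32, 2.13 and 1.56 on the knockout arrays and at 2.35, 2.33 and 2.40 on the controls, with all knockout arrays below the controls. Its difference was -0.36 (SE 0.25; limma, adjusted p = 0.919). It was -0.14 without knockout 3 and -0.80 row-blocked. Of the ATPases related to p97, Nsf and Spata5 were tested and differed by -0.11 and -0.38, neither past the threshold.

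Averaged over each list, the p97 genes and the proteasome subunits were higher on every knockout array than on every control array, although single members such as Ufd1l, Faf2, Ubxn1 and Ubxn6 overlapped between the groups. Relative to each gene's mean over the 6 arrays, the 9 members stood on average at 0.39, 0.49 and 0.09 on knockout arrays 1, 2 and 3 and at -0.23, -0.36 and -0.38 on the controls. The 14 subunits of the 20S core stood at 0.85, 0.70 and 0.12 in knockout and between -0.67 and -0.42 in control cells. The 18 subunits of the 19S particle other than Psmc4 stood at 0.70, 0.57 and 0.09 and between -0.48 and -0.42. In all 3 lists knockout 3 was the lowest knockout array. The median difference was 1.05 in the 20S core and 0.84 in the 19S list, beside 0.52 in the 9 members, of which Vcp, Nploc4, Ufd1l and Zfand2a lay at or above 1.03.

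**Figure D3:**
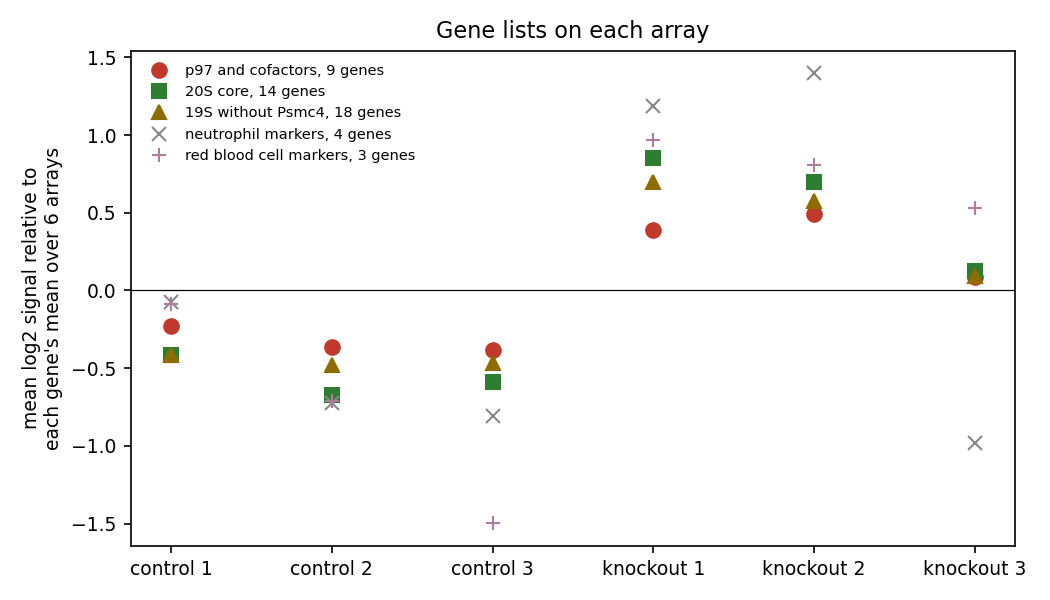
Mean log2 signal of 5 gene lists on each array, relative to each gene's mean over the 6 arrays. The p97 members and both proteasome lists lie above 0 on the knockout arrays, least on knockout 3, and below 0 on the controls. Neutrophil markers are at -0.98 on knockout 3.

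Markers of blood cells moved in part with these lists. Of those tested, Hbb-bt and Elane were well above background on all 3 knockout arrays, but on 1 and 2 control arrays. S100a8 and Camp were so on all 3 control arrays, but on 2 knockout arrays. Each of these passed the filter through 1 group only, so the direction of the averages and sums can come in part from the filter. The 4 tested neutrophil markers stood at 1.19, 1.40 and -0.98 on knockout arrays 1, 2 and 3 and at -0.08, -0.73 and -0.81 on the controls. They were high on knockout 1 and 2 but not on knockout 3. The log2 of their summed signal ranged from 0.28 to 3.11 in knockout and from 0.06 to 1.27 in control cells, and these ranges overlapped. The part of neutrophil RNA in the members' differences was not tested. The 3 tested red blood cell markers stood at 0.97, 0.81 and 0.53 on the knockout arrays and at -0.09, -0.71 and -1.50 on the controls, and the log2 of their sum ranged from 2.49 to 3.30 and from 0.81 to 2.02. The part of red blood cell RNA in the members' differences was not tested. Endothelial markers stood at 0.39, 0.76 and -0.69 in knockout and 0.93, -0.44 and -0.95 in control cells, so these groups overlapped. All 8 had a higher mean in knockout, beside 55% of all features, and 0 had an unadjusted p under 0.05 (limma). The 6 tested macrophage markers stood at 0.66, 0.32 and -0.46 against 0.28, -0.33 and -0.46, and also overlapped. Of these, 4 had higher and 2 lower means, with 1 higher at an unadjusted p under 0.05, beside 2.82% of all features. The part of endothelial and macrophage RNA in the members' differences was not tested. The sums of satellite cell markers ranged from 7.02 to 7.14 in knockout and from 7.28 to 7.74 in control cells on the log2 scale, and those of fibro-adipogenic progenitors from 8.78 to 8.91 and from 9.097 to 9.79. Relative to each gene's mean, the satellite cell markers averaged -0.08, -0.10 and -0.40 on the knockout arrays against -0.24, 0.49 and 0.33 on the controls, and the progenitor markers 0.06, 0.09 and -0.36 against 0.30, -0.21 and 0.11. The sums were thus lower on all knockout arrays, whereas the averages overlapped. Of the satellite cell markers 5 had lower means and 5 higher, with differences from -1.97 to 0.48. At an unadjusted p under 0.05 (limma), 3 of these 10 were lower and 0 higher, beside 4.41% and 2.82% of all features. Groups were apart in 3 that were lower and 0 that were higher, beside 5.91% and 4.93%. Pax7, Itga7 and Myf5 passed the filter through the control arrays only, being above background on 2, 2 and 0 knockout arrays. The counts of lower satellite cell markers, their averages and their sums can thus come in part from the filter. Of the progenitor markers 5 were lower and 3 higher, with 1 lower and 0 higher at an unadjusted p under 0.05. None of either list passed an adjusted p of 0.05. The part of satellite cell and progenitor RNA in the members' differences was not tested.

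By Pearson's r over the 6 arrays, the 5 features most like Vcp were Zswim6 (0.999), Mllt11 (0.996), LOC677368 (0.995), Psmd2 (0.995) and Psmb6 (0.993). They were picked from 17946 features on 6 points that share the group difference, so values this near 1 describe these arrays only. The differences of Zswim6, Mllt11 and LOC677368 were 0.25, 2.05 and 0.39. Psmd2, a scaffold subunit of the 19S particle, differed by 1.04, and Psmb6, a proteolytic subunit of the 20S core, by 0.74. Among the members, r with Vcp was 0.97 for Nploc4, 0.93 for Faf1, 0.86 for Zfand2a, 0.80 for Ufd1l, 0.79 for Nsfl1c, 0.77 for Faf2, 0.35 for Ubxn1 and -0.25 for Ubxn6. Among all features, the r of Nploc4, Faf1, Zfand2a and Ufd1l lay at percentiles 99.8, 99.4, 98.1 and 96.6. Those of Nsfl1c, Faf2, Ubxn1 and Ubxn6 lay at 96.2, 95.8, 73.8 and 29. The members' r rest on the same 6 points and also contain the group difference.

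**Figure D4:**
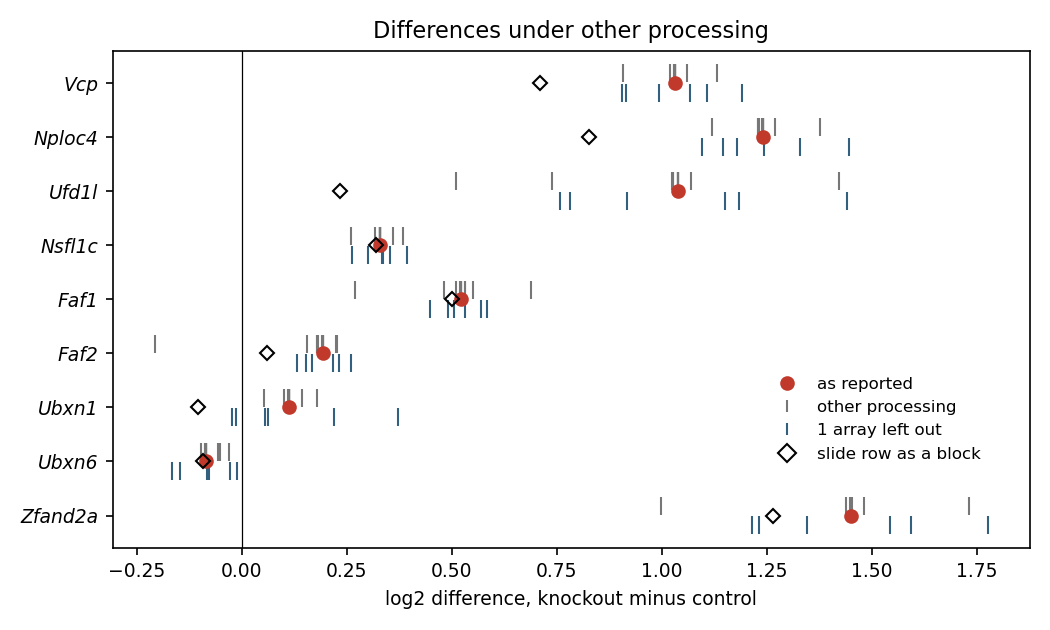
Log2 difference of each tested member as reported (circle), under other processing (grey ticks), with 1 array left out (blue ticks) and in the row-blocked fit (diamond). Vcp, Nploc4 and Zfand2a lie at or above 0.71 in every fit drawn, while Ufd1l reaches 0.23 and Faf2 and Ubxn1 cross 0.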

How the data were processed

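Gene expression was measured on 1 single-colour Agilent array for each of 6 mice; per the labels' protocols, the RNA was amplified and Cy3-labelled. The deposited scanner files give intensity, background-subtracted and detrended within each array. Per the file headers, Agilent Feature Extraction 10.7.1.1 made them, whereas version 9.5.1.1 stands in the submitters' processing notes. The array annotation is on mm9. Levels are log2 of the processed signal, scaled by subtracting the 75th percentile over each array's spots. Control spots, outlier-flagged spots and 2744 unnamed probes were left out, spots of a probe were averaged, and 0 spots were saturated. Names were updated by accession through RefSeq of GRCm38.p6 (27235 probes matched, 2838 renamed). Testing required a probe to exceed background clearly on all 3 arrays of at least 1 group, and the brightest probe stood for a gene: 24758 probes, 17949 features. Where a second probe is given, its values come from a fit over all tested probes.

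Groups were compared with limma 3.58.1 in R 4.3.3 (lmFit, eBayes), with Benjamini-Hochberg adjustment and an adjusted p of 0.05 as threshold, all 2-sided; the median SE was 0.28. In 20 simulations with 17949 features, the share of true changes called was 7.61% at 2-fold, 64.6% at 4-fold and 84.6% at 8-fold. Each feature was drawn independently from a normal distribution with its own within-group SD, and 200 features were raised in knockout. No effect of array or slide row was simulated, so these shares need not hold for the real arrays. The number of arrays limits the precision. The members and gene lists were chosen with earlier results of these data known. By rule, all members were named, with Psmc4, the 3 highest and 3 lowest of the network list by moderated t, and the 5 features most correlated with Vcp. Alternatives were other background correction, normalization, scaling, filters, probe summaries, the deposited table (intensity, found to share its quantiles across arrays), moderation, array weights, blocks and arrays left out. The series' design text gives 3 mice a group. Promoter sequences come from a RefSeq table of GRCm38.p6. Probe positions are those of the array annotation on mm9, and the exon or UTR a probe lies in is not stated.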

Additional observations from a re-analysis of the deposited data

How the results depend on the processing

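Under 20 alternatives, 0 members passed the threshold, and the members' median difference lay between 0.27 and 0.69. As reported, 8 of the 9 tested members had a higher mean in knockout cells, beside 55% of all features. The alternatives gave 7 or 8 of 9, and 9 of 10 without the filter on dim probes, where Ubxn4 was added. Ubxn6 had a lower mean in all 20. Vcp lay between 0.71 and 1.19, Nploc4 between 0.83 and 1.45, Zfand2a between 0.998 and 1.78 and Ufd1l between 0.23 and 1.44. Adjusted p (limma) ran from 0.102 to 0.719 for Vcp, from 0.0690 to 0.648 for Nploc4 and from 0.145 to 0.70 for Zfand2a. Over all features the count past the threshold was 0 as reported, 1 with quantile normalization, 2 with median scaling, 1 in the deposited table, 8 with an intensity trend and robust moderation and 9 with array weights; none was a member. Faf2 turned to -0.21 with the mean of its probes. Ubxn1 turned to -0.10 in the row-blocked fit and among the row 2 arrays, and ran from -0.023 to 0.37 with an array left out. The cause was not tested, other than the second Faf2 probe, whose own sign is negative. Same-numbered arrays deviated together only weakly (r of 0.07, -0.02 and 0.09). With 3 arrays a group, centred within each group, these values cannot tell whether same-numbered samples were paired. With the replicate block Vcp stayed at 1.03 (limma, adjusted p = 0.373). In that fit 3 members were higher at an unadjusted p under 0.05, beside 3.01% of all features. Signal over background limits Ubxn4 and the dimmer probes of Ufd1l and Faf2. The reported probes also moved with background correction. By normexp, Ufd1l went from 1.04 to 0.51, Faf1 from 0.52 to 0.27 and Zfand2a from 1.45 to 0.998.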
